A study of Rattus norvegicus with 15 samples.

Results

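2,7-Naphthalenediol, naphthalene with a hydroxyl group at each of the positions in its name, was compared with its solvent DMSO in primary rat hepatocytes. The comparison rests on 6 of the 15 arrays of the series: 3 arrays of cells exposed to 30 µM 2,7-naphthalenediol and 3 arrays of cells given DMSO (titled VC in the labels). The arrays were chosen by title, and the file headers place all 6 on 1 slide. Cells of both groups were frozen hepatocytes of male Wister rats (spelled as in the labels), bought from a supplier, cultured for 24 h and then exposed for 24 h. The design text calls the 3 arrays of a group independent experiments, and the sources used here do not say whether the cells came from 1 animal, several or a pool. The series also holds naphthalene, 1-naphthol and 1,5-naphthalenediol at the same dose and time, and asks whether liver toxicity can be read across between naphthalene and its analogs. RNA was labelled with 1 dye and hybridised to Agilent rat arrays.

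Hepatocytes meet phenols and quinones with layered defences. The aryl hydrocarbon receptor (AhR) switches on oxidising and conjugating enzymes such as Cyp1a1, Aldh3a1 and Nqo1, and the transcription factor NRF2 switches on genes that reduce quinones and make glutathione. A separate set of sensors responds to unfolded proteins in the endoplasmic reticulum (ER), to amino acid shortage (ATF4), to DNA damage (p53) and to growth signals (the immediate early genes). Sterol-regulated enzymes supply cholesterol, and interferon-stimulated genes form the antiviral programme that hepatocytes can also express in culture.

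Levels are given below as scaled intensity, the array signal after each array was brought to the same 75th percentile (1922 intensity units). Such values compare a gene between arrays and not 1 gene with another. Changes are log2(2,7-naphthalenediol over DMSO) ± standard error, and a gene is said to have risen or fallen where limma's Benjamini-Hochberg adjusted p over 19803 genes was below 0.05. Signal over background sets the precision of these arrays: the scanner software called 57.8% to 59.4% of gene spots on these 6 arrays well above background, and their 75th percentiles ran from 1863 to 1966 intensity units. All 10 hepatocyte markers listed were well above background on all 6 arrays, and albumin (Alb) read 138123, 147750.0 and 143195 with 2,7-naphthalenediol and 153051, 149287 and 152983 with DMSO. Some listed markers of other liver cells were not well above background on any of the 6 arrays: 5 of 10 for stellate cells (Col1a1, Lrat, Pdgfrb, Hand2 and Dcn), 7 of 10 for macrophages, 6 of 8 for endothelium, 4 of 7 for bile duct (Krt19, Krt7, Spp1 and Cftr) and 5 of 7 for lymphocytes (including Ptprc and Cd3e). Others were well above background on all 6: 4 stellate, 3 macrophage, 2 endothelial, 2 bile duct and 1 lymphocyte marker. They included Col1a2, Lyz2, Cd68, C1qb, Vwf, Cdh5, Epcam and Cd3d. The standard deviation of the log2 difference between 2 arrays was 0.221 to 0.226 within 2,7-naphthalenediol, 0.201 to 0.234 within DMSO and 0.257 to 0.308 between the groups. Position on the slide went with the groups in part, since row 1 held 2,7-naphthalenediol 1 and the 3 DMSO arrays while row 2 held 2,7-naphthalenediol 2 and 3.

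Exposure to 2,7-naphthalenediol moved many genes by small amounts. Of 19803 genes tested, 1228 (6.2%) rose and 958 (4.84%) fell, 2186 (11%) in all. The median size of the log2 change was 0.265 among them, against 0.108 over all genes, and 89.1% of them changed by less than 1.5-fold. A change of 2-fold or more was reached by 33 genes that rose, 5 of them with a symbol (Aldh3a1, Ctbp2, Egr1, Amigo3 and Trim58), and by 22 that fell, 11 with a symbol. The 3 arrays of 2,7-naphthalenediol lay above all 3 of DMSO for 3205 genes (16.2%) and below all 3 for 4401 (22.2%). Each of the 6 arrays was left out in turn (an omission in the text that follows), and 387 of the rises and 181 of the falls were called every time. The total called ranged from 732 genes without 2,7-naphthalenediol 2 to 1614 without 2,7-naphthalenediol 1, and was 920 without 2,7-naphthalenediol 3, 1275 without DMSO 1, 1220 without DMSO 2 and 859 without DMSO 3. With the slide row as a block, which sets 2,7-naphthalenediol 1 alone against DMSO, 82 genes passed the threshold, 73 of them among the 2186. The split of calls moved with the scaling: 819 rose and 2132 fell with each array's median subtracted, and 1374 rose and 694 fell with the percentile taken over probes detected on all arrays. Small changes of many genes at once are therefore read below beside the median of all genes (-0.024).

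**Figure D1:**
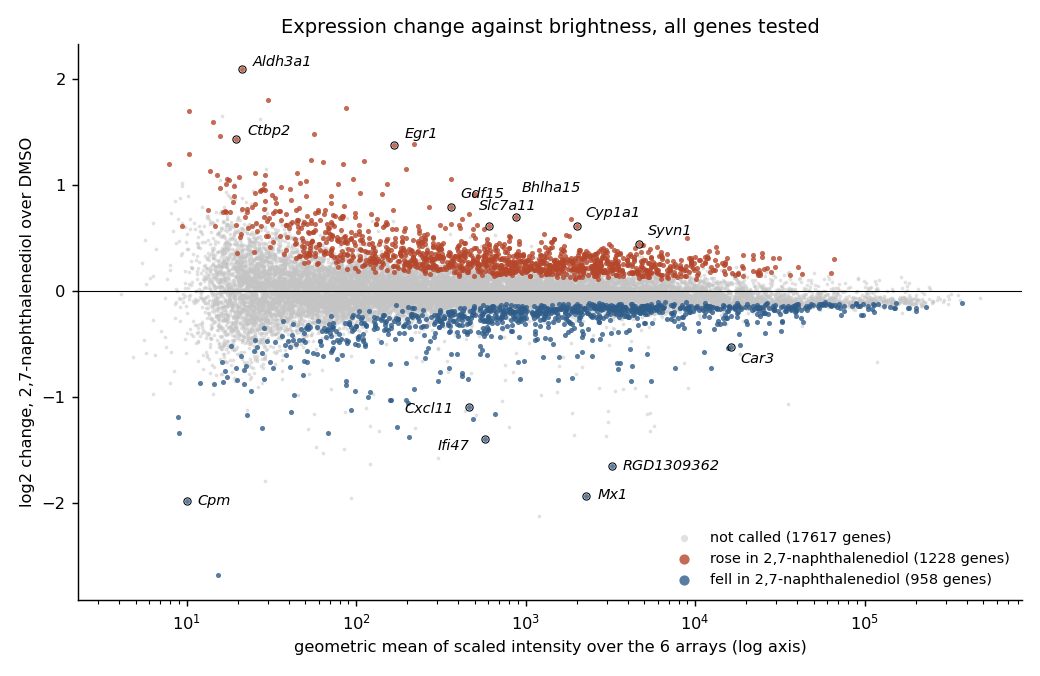
Log2 change of every gene tested (vertical axis, 2,7-naphthalenediol over DMSO) against its geometric mean scaled intensity over the 6 arrays (horizontal log axis), with 1228 genes that rose in red, 958 that fell in blue and the rest in grey. Aldh3a1 stands at the top at 2.09, Mx1 and RGD1309362 lie at -1.93 and -1.65 among bright genes, and most coloured points lie close to the line at 0.

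Aldh3a1 and Cyp1a1, both AhR targets, rose with 2,7-naphthalenediol. Aldh3a1, an aldehyde dehydrogenase that is nearly silent in normal liver and strongly inducible through AhR, read 49.7, 37.7 and 44.7 on the 2,7-naphthalenediol arrays, against 10.1, 10.2 and 10.5 on the DMSO arrays. The 2 groups stood far apart, and the estimated rise was 4.27-fold (log2 change 2.09 ± 0.11, adjusted p = 3.07e-06). No DMSO array was well above background for this gene. Within row 1 its change was 2.28. Cyp1a1, which oxidises polycyclic aromatics, read 2297, 2265 and 2904 with 2,7-naphthalenediol and 1469, 1717 and 1675 with DMSO (log2 change 0.61 ± 0.12, adjusted p = 0.011). All 3 exposed arrays were above all 3 controls, by 1.53-fold on average. Cyp1a2, the hepatic aromatic-amine oxidase, rose by 1.19-fold (0.25 ± 0.063, adjusted p = 0.0298), a call that ended whichever of the 6 arrays was left out (adjusted p up to 0.084). The receptor's own feedback inhibitor Ahrr was not well above background on any of the 6 arrays, and Cyp1b1 and Tiparp were not among the genes tested. Of 10 genes of the pathway tested, 4 rose (Aldh3a1, Cyp1a1, Nqo1 and Cyp1a2) and 0 fell, 40% against 6.2% of all genes, and the median change was 0.14. Each omission left 3 of the 4, and the slide row as a block left Aldh3a1. The receptor Ahr, its partner Arnt, Ugt1a6 and Cyp2s1 were among those not called.

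A share of the NRF2 targets rose, by small steps. Of 47 tested, 15 rose (31.9%, against 6.2% of all genes) and 1 fell (2.13%, against 4.84%), with a median change of 0.081. Slc7a11, the cystine importer for glutathione synthesis, read 773, 690.4 and 809.6 on the 2,7-naphthalenediol arrays and 525, 477 and 483 on the DMSO arrays, a rise of 1.53-fold (0.61 ± 0.079, adjusted p = 0.00192). These values are of its brightest probe. A dimmer Slc7a11 probe gave 0.17 ± 0.10 and was not called, and the mean of the probes gave 0.39. Hmox1, which breaks down heme, read 1659, 1568 and 1758, against 1195, 1252 and 1279 (log2 change 0.42 ± 0.069, adjusted p = 0.00488). Nqo1, which reduces quinones and belongs to both the AhR and the NRF2 list, read 1559, 1609 and 1659 with 2,7-naphthalenediol and 1212, 1273 and 1159 with DMSO (log2 change 0.41 ± 0.059, adjusted p = 0.00326). In each of these 3 genes the groups were separate and the call was kept whichever array was left out. The NRF2 partner Mafg (0.35), the glutathione transferase Gstp1 (0.35) and the efflux pump Abcc4 (0.33) rose as well, also under every omission. The sulfiredoxin Srxn1 (0.27 ± 0.08, adjusted p = 0.0476) and the thioredoxin reductase Txnrd1 (0.26 ± 0.075, adjusted p = 0.0467) passed narrowly, and their calls ended in all 6 omissions (adjusted p up to 0.16 and 0.15). Gclc, the rate-limiting subunit of glutathione synthesis, read 3581, 3835 and 4014, against 3480.1, 3698 and 3566, overlapping ranges with a log2 change of 0.088 ± 0.055. Gstm3 was the member that fell (-0.30 ± 0.065, adjusted p = 0.0156), a call that ended in 2 omissions. With the array median as the scale 10 members rose and 3 fell. The risers numbered 9 without 2,7-naphthalenediol 2 or 3 and 10 to 13 in the other omissions. Of 16 genes of heme synthesis and breakdown, Hmox1, Abcb6 and Slc48a1 rose and Alad and Urod, enzymes of heme synthesis, fell (18.8% and 12.5%, against 6.2% and 4.84%). Omissions left 1 or 2 of these rises, and the falls were called only without DMSO 2.

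**Figure D2:**
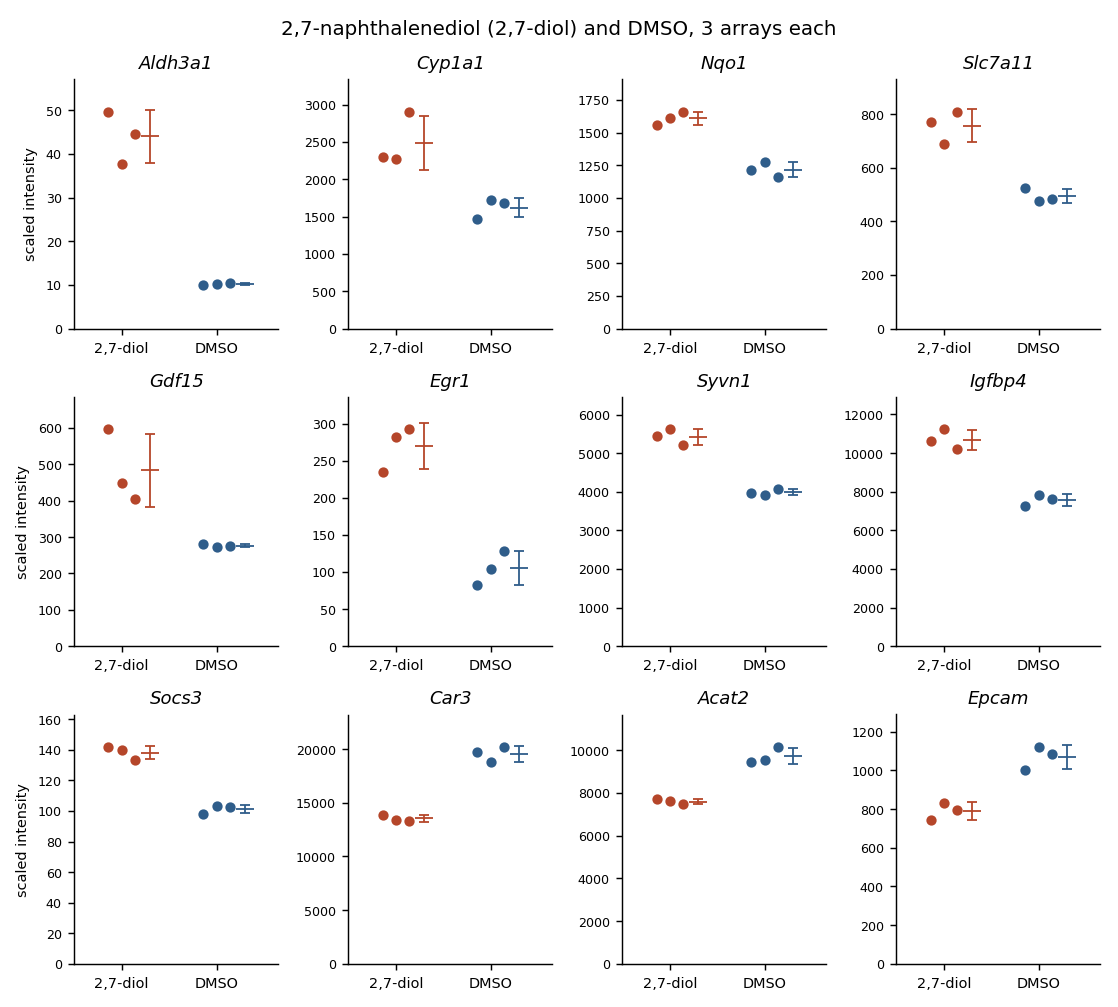
Scaled intensity of 12 genes on each array (points), with 2,7-naphthalenediol (2,7-diol, red) left of DMSO (blue) and the mean ± SD of 3 arrays beside each set. The groups do not overlap in any panel: Aldh3a1 to Socs3 are higher with 2,7-naphthalenediol and Car3, Acat2 and Epcam lower.

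Syvn1, Herpud1 and some other genes of the ER stress response rose, and the chaperone Hspa5 was not called. Of 27 ER genes tested, 7 rose and 0 fell, 25.9% against 6.2% of all genes, with a median of 0.07, while the brightest of 4 equal classes of all genes, which held 24 of the 27, had a median of -0.063. With the array median as the scale 5 rose and 2 fell. The risers numbered 3 without 2,7-naphthalenediol 2 or DMSO 3, 4 without DMSO 2 and 5 to 7 otherwise. Syvn1, the ubiquitin ligase of ER-associated degradation, read 5459, 5618 and 5205 on the 2,7-naphthalenediol arrays and 3961, 3926 and 4072 on the DMSO arrays. Its ranges were narrow and separate, giving 1 of the 5 smallest p-values among risers (log2 change 0.44 ± 0.043, adjusted p = 0.000417). Herpud1, which works with it, read 28570.5, 28790.5 and 27002, against 23147, 21459 and 21394 (log2 change 0.35 ± 0.055, adjusted p = 0.00386), and the co-chaperone Dnajb9 rose by 0.24 (adjusted p = 0.0031). The chaperone Hyou1 (0.26) and Sdf2l1 (0.33) rose too, but their calls ended in 2 and 3 of the 6 omissions. The chaperone Hspa5 (BiP) read 97861, 96737 and 90953, against 91265, 85475 and 87939, with a change of 0.11 ± 0.044 and adjusted p = 0.124.

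Among genes of ATF4 and the amino acid response, 6 of 36 rose (16.7%, against 6.2% of all genes) and 1 fell (2.78%, against 4.84%). The risers numbered 3 without 2,7-naphthalenediol 2, DMSO 2 or DMSO 3, 4 without 2,7-naphthalenediol 1 or DMSO 1, and 5 without 2,7-naphthalenediol 3. Gdf15, a secreted stress cytokine also on the p53 list, read 596, 448 and 405 with 2,7-naphthalenediol, against 280.2, 272 and 275 with DMSO (log2 change 0.79 ± 0.12, adjusted p = 0.00359). The exposed arrays were uneven here and the controls tight, and every exposed array was above every control. Ppp1r15a, which restores translation after stress, rose by 0.35 (adjusted p = 0.00519), and Slc7a5 and Chac1 passed with calls that ended in 5 and 6 of the 6 omissions. Ddit3 (CHOP), the proapoptotic factor of this pathway, read 11874, 9640.2 and 13140.4, against 11054, 11082 and 10231, with no call (adjusted p = 0.656). Atf3 was also not called (0.18 ± 0.082, adjusted p = 0.18). Of 21 p53 targets 5 rose (23.8%, against 6.2% of all genes) and 2 fell (9.52%, against 4.84%), with 4 or 5 rises and 0 or 1 falls in every omission: Tp53inp1, which promotes autophagy and cell death (0.37), rose under every omission, and the death receptor Fas fell (-0.30), a call that ended in 4 omissions. The p53-linked kinase Plk3 (0.40) and the proapoptotic Bbc3 (PUMA, 0.33) rose, with calls that ended in 1 and 2 omissions. A dimmer probe of Tp53inp1 gave 0.12 ± 0.048 and was not called. The medians of the ATF4 list (0.028) and of the p53 list (0.040) turned to below 0 with the array median as the scale (-0.020 and -0.0089). Bag3, a co-chaperone of the heat shock response, rose (0.32 ± 0.046, adjusted p = 0.00299), while 2 of 22 genes of that list rose in all (9.09%, against 6.2%). Mtf1, the metal-sensing transcription factor, read 493, 475 and 485, against 373, 386 and 382 (log2 change 0.35 ± 0.036, adjusted p = 0.000547). Dimmer Mtf1 probes gave 0.096 ± 0.12 and 0.35 ± 0.18 and were not called. Of the metal list 4 of 18 genes rose (22.2%, against 6.2%) and 0 fell. That count was 1 without 2,7-naphthalenediol 2, DMSO 1 or DMSO 3, 2 without 2,7-naphthalenediol 3 and 3 otherwise.

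Some immediate early and growth-signal genes were higher at 24 h, Egr1 by the most. Of 34 tested, 10 rose (29.4%, against 6.2% of all genes) and 2 fell (5.88%, against 4.84%), with a median change of 0.16. Egr1, a zinc-finger factor that growth factor signals switch on through the serum response factor, read 235, 283 and 292 on the 2,7-naphthalenediol arrays and 82.6, 104 and 129 on the DMSO arrays. Every exposed array was far above every control, and the rise of 2.6-fold (1.38 ± 0.15, adjusted p = 0.000985) was called under every omission. Myc read 3517, 3456 and 3491, against 2794, 2946 and 2926 (log2 change 0.27 ± 0.04, adjusted p = 0.00316), and Ier3, a survival gene of the same class, rose by 0.29 (adjusted p = 0.00336). Klf4 (0.43 ± 0.089, adjusted p = 0.013), the phosphatase Dusp5 (0.38 ± 0.087, adjusted p = 0.0193) and the AP-1 subunit Fosl1 (0.40 ± 0.11, adjusted p = 0.0406) also rose, with calls that ended in 1, 2 and 5 of the 6 omissions. Gadd45b and Klf10 fell slightly. The number of these genes called up was 4 without 2,7-naphthalenediol 2, 6 without 2,7-naphthalenediol 3 and 8 to 10 otherwise. Srf, which binds the serum response elements of such genes, read 3186, 3462 and 3384 with 2,7-naphthalenediol and 2518, 2906 and 2860.0 with DMSO (log2 change 0.28 ± 0.058, adjusted p = 0.0135), and without 2,7-naphthalenediol 2 its call ended (adjusted p = 0.0591).

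Serum response factor binds the CArG box, a run of 6 A or T bases between CC and GG. Promoter windows of 300 bases (250 before to 50 after the gene's start, RefSeq, build GRCr8) were found by symbol for 28 of the 34 genes. A CArG box was present, on either strand and counted once per place, in 5 of these 28 windows and in 1.64% of all 33469 windows. The 5 were Egr1, Dusp5 and Klf6, which rose, and Egr2 and Zfp36, which were not called. The 3 windows of risers are shown because these members moved together, with the boxes in capitals and written in the direction of transcription: Egr1 at chr18:26736828-26737127 on the + strand, Dusp5 at chr1:262543524-262543823 on the + strand and Klf6 at chr17:69458429-69458728 on the - strand. These genes were picked after their values were seen, and a match describes the letters only.
Egr1: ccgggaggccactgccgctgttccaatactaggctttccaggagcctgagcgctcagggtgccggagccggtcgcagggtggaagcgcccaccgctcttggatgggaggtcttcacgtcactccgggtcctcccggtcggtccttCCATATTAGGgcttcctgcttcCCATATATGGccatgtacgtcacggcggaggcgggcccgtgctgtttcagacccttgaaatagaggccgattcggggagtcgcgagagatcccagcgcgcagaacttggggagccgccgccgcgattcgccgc
Dusp5: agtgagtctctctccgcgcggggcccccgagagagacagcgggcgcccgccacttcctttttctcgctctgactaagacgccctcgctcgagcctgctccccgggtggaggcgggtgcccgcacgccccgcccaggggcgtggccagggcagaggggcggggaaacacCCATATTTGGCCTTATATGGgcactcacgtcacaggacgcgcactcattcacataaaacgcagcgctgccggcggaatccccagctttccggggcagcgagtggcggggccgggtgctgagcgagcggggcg
Klf6: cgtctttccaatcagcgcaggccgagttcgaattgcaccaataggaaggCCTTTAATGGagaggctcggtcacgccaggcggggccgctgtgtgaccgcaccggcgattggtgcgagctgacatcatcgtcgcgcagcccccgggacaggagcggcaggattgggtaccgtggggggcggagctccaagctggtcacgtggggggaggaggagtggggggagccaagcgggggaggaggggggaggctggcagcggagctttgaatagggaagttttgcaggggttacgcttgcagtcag
Egr1 held 2 boxes, starting 105 and 83 bases before the gene's start. In Dusp5 the 2 boxes abutted, starting 82 and 72 bases before it, and in Klf6 the single box started 201 bases before it.

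Chemokine and feedback genes split. Socs3, the inhibitor that STAT3 induces against its own signal, read 142, 139.7 and 133 on the 2,7-naphthalenediol arrays and 98.3, 103 and 103 on the DMSO arrays, another of the 5 smallest p-values among risers (log2 change 0.45 ± 0.046, adjusted p = 0.000479). A dimmer Socs3 probe gave 0.23 ± 0.16 and was not called. The neutrophil chemokine Cxcl1 read 919, 972 and 972, against 609, 702 and 685 (log2 change 0.52 ± 0.076, adjusted p = 0.00322). In both the groups were separate and every omission kept the call. Cxcl16 fell by 1.2-fold (-0.27 ± 0.048, adjusted p = 0.00744). The receptor Tlr2 read 34, 33.3 and 25.8, against 53.1, 68.7 and 61.8 (log2 change -0.98 ± 0.28, adjusted p = 0.0416), a call that ended in all 6 omissions (adjusted p up to 0.13). In total 3 of 23 genes of this list rose (13%, against 6.2%) and 2 fell (8.7%, against 4.84%), with 2 or 3 rises and 1 to 3 falls in the omissions. Cell cycle genes were mostly dim here, and 7 of 41 rose with 0 falling (17.1%, against 6.2%). The risers numbered 1 without 2,7-naphthalenediol 3 or DMSO 2, 2 without DMSO 3, 3 without 2,7-naphthalenediol 2 or DMSO 1, and 6 without 2,7-naphthalenediol 1. The ribonucleotide reductase subunit Rrm2 read 720.0, 589 and 798 with 2,7-naphthalenediol and 481, 471 and 439 with DMSO (log2 change 0.59 ± 0.12, adjusted p = 0.0125). The mitotic kinase Plk1 (0.49), Ube2c (0.55), E2f1 (0.33) and Gins1 (0.29) also rose, with calls that ended in 5, 4, 2 and 5 of the 6 omissions. A dimmer Ube2c probe gave 0.15 ± 0.28 and was not called.

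Interferon-stimulated genes held more falls than any other list, and the DMSO arrays disagreed on them. Of 50 tested, 21 fell (42%, against 4.84% of all genes) and 0 rose, with a median change of -0.69. The 3 arrays of 2,7-naphthalenediol lay below all 3 DMSO arrays for 42 of the 50, against 22.2% of all genes. Mx1, an antiviral GTPase, read 1525, 982 and 1067 on the 2,7-naphthalenediol arrays, against 1915, 7939 and 5829 on the DMSO arrays. DMSO 2 and 3 stood far above DMSO 1, which was close to the exposed arrays though above them, and the call (-1.93 ± 0.46, adjusted p = 0.0225) ended in 4 of the 6 omissions. The chemokine Cxcl11 read 361, 305 and 289, against 485, 873 and 738 (log2 change -1.10 ± 0.22, adjusted p = 0.0115), and every omission kept its call (adjusted p up to 0.046). Ifi47 (-1.40), Tnfsf10 (-1.30), Ifi44 (-0.85) and Gbp2 (-0.84) fell in the same way, with calls that ended in 4, 1, 5 and 5 omissions, and so did the immunoproteasome subunits Psmb8, Psmb9 and Psmb10 (-0.31, -0.38 and -0.31).

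Averaged over the 50 genes, and relative to each gene's mean over the 6 arrays, the log2 level was -0.26, -0.46 and -0.38 on the 2,7-naphthalenediol arrays and -0.06, 0.65 and 0.50 on DMSO 1, 2 and 3. DMSO 1 was the lowest of the 3 controls for 43 of the 50 genes, against 30.3% of all genes, and still lay above every exposed array for 44 of them. The count of falls was 25 without DMSO 1, 16 without 2,7-naphthalenediol 1 and 4 without any other single array. No member was called with the slide row as a block. Ifit3, Isg15, Rsad2, Oasl and Usp18 had changes of -2.13, -1.06, -1.33, -1.30 and -1.17 that did not pass. In each of them DMSO 1 was below DMSO 2 and 3, and for Rsad2 it was below every exposed array too. Summed marker levels were also lower for lymphocytes (117.7 to 126.9 with 2,7-naphthalenediol against 139.7 to 156.2 with DMSO), macrophages (490.2 to 518 against 519.8 to 546) and endothelium (3238 to 3599.6 against 3612 to 4006). The sum of the 10 hepatocyte markers was lower in the same way (983018 to 1013580 against 1037770 to 1060510), and that of stellate cell markers overlapped between the groups (469.6 to 637 against 463 to 649). The macrophage markers Cd68, Lyz2 and C1qb were not called (adjusted p of 0.27, 0.743 and 0.599), with Ptprc, Cd3e, Adgre1 and Csf1r not well above background on any of the 6 arrays. Cd3d made up most of the lymphocyte sum and fell (-0.38 ± 0.10, adjusted p = 0.0373), a call that ended in 5 omissions. Lyz2 made up most of the macrophage sum, and its levels overlapped between the groups (308 to 372 against 339 to 355). Vwf made up most of the endothelial sum and was not called (-0.14, adjusted p = 0.249). Fewer cells of a type and less RNA per cell cannot be told apart in such bulk samples, and the part of these cells in the result was not tested.

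**Figure D3:**
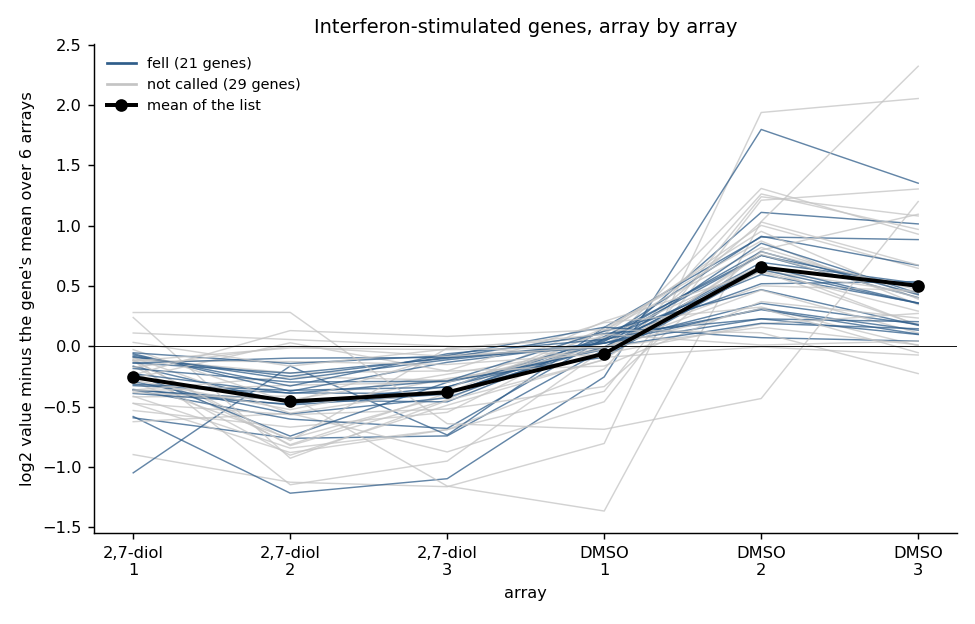
Log2 level of each of the 50 interferon-stimulated genes on the 6 arrays, relative to the gene's mean over them, with a thin line joining the values of 1 gene (blue for the 21 that fell, grey for the 29 not called) and the black line giving the mean of the list. The list mean is -0.26, -0.46 and -0.38 on the 2,7-naphthalenediol arrays, -0.06 on DMSO 1, and 0.65 and 0.50 on DMSO 2 and 3.

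The factor complex that answers type I interferon reads the interferon-stimulated response element. Searched as GAAANNGAAA on both strands of the same 300-base promoter windows, it was present in 29 of the 42 windows found for these genes and in 3.92% of all 33469 windows. It was found in 12 of 20 windows of genes that fell and in 17 of 22 of genes not called. The windows of Ifi44 (chr2:243303791-243304090, - strand) and Gbp2 (chr2:234005477-234005776, + strand), 2 of the genes that fell, are shown as examples of both call and motif with the matches in capitals. A match in reverse reads TTTC on either side of 2 free bases.
Ifi44: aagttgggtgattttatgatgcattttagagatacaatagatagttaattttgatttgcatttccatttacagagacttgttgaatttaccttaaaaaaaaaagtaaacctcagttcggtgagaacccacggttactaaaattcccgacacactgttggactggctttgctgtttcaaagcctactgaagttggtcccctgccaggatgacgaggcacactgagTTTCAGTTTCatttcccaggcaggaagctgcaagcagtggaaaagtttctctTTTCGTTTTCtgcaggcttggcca
Gbp2: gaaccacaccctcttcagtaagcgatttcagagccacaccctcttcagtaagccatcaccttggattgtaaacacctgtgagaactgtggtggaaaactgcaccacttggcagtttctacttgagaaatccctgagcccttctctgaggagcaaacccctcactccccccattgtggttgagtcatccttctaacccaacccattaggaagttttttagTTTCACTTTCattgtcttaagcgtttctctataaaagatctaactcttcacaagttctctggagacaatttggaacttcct
Ifi44 held 2 places, 1 of them downstream of the annotated start, and Gbp2 held 1, beginning 31 bases before it.

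Several enzymes of cholesterol synthesis were lower with 2,7-naphthalenediol. Of 27 genes tested, 10 fell (37%, against 4.84% of all genes) and 1 rose (3.7%, against 6.2%). The median change was -0.073, close to the -0.063 of the brightest class. Acat2, which starts the pathway by joining acetyl-CoA units, read 7694, 7638 and 7461 on the 2,7-naphthalenediol arrays and 9468, 9533 and 10148 on the DMSO arrays (log2 change -0.35 ± 0.041, adjusted p = 0.00121). Fdps, which makes farnesyl diphosphate, read 40493, 39490.0 and 37259.7, against 48433, 46741 and 48129.5 (log2 change -0.29 ± 0.041, adjusted p = 0.0025). The later enzymes Hsd17b7 (-0.37), Cyp51 (-0.31) and Msmo1 (-0.29) fell too, and Hmgcs1, Idi1, Pmvk, Ebp and Sc5d were the other members that fell. For all 5 named with a value the groups were separate and every omission kept the call. Omissions left 7 to 9 members fallen. Srebf2, the transcription factor of the pathway, rose (0.18 ± 0.05, adjusted p = 0.0436), a call that ended in all 6 omissions. The sterol regulatory element, searched as TCACNCCAC on both strands, was in 0 of the 19 promoter windows found for the list and in 1.12% of all windows. At so low a share, 0 in 19 windows does not set this list apart from all genes.

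Related lipid genes changed with it in small part. Acss2 and Acly, which supply acetyl-CoA, fell by 1.28-fold and 1.17-fold (-0.35 ± 0.056, adjusted p = 0.00419, and -0.23 ± 0.062, adjusted p = 0.0352), the second with a call that ended in 5 of the 6 omissions, among 3 falls and 0 rises in 27 genes of fatty acid and triglyceride synthesis (11.1% fell, against 4.84%). Every omission left 1 or 2 of these falls. Angptl4, a PPAR-alpha target that inhibits lipoprotein lipase, read 16915, 15174 and 15299 on the 2,7-naphthalenediol arrays and 22134, 21553 and 19138 on the DMSO arrays (log2 change -0.41 ± 0.071, adjusted p = 0.00618). Among 38 PPAR-alpha targets 5 fell (13.2%, against 4.84%) and 2 rose (5.26%, against 6.2%), Ppara itself among the risers (0.30, a call that ended in 5 omissions), and the median of the list was -0.051. Every omission lowered the falls, to between 1 and 3.

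Bright, abundant transcripts lay slightly lower as a class, and 2 gene groups made of them have to be read against that. Of 49 oxidative phosphorylation genes 48 were in the brightest class, and 48 had a change below 0. The median was -0.10, against -0.063 for all genes of that class, of which 70.6% were below 0. A fall was called for 6 of the 49 (12.2%, against 4.84% of all genes) and no rise, among them the complex II subunits Sdhb, Sdhc and Sdhd (-0.16, -0.14 and -0.16). The count of falls was 0 after quantile normalization, 2 with the percentile over detected probes and 19 with the array median, and 0 to 2 when an array was left out. Of 34 proteasome subunits 6 fell (17.6%, against 4.84% of all genes) and 0 rose, 3 of them the interferon-inducible Psmb8, Psmb9 and Psmb10, and after quantile normalization 0 fell. No fall was left without 2,7-naphthalenediol 2, 2,7-naphthalenediol 3 or DMSO 3, and 1 without DMSO 2.

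Few genes of hepatocyte function were called, and some liver transcription factors rose. Of 35 genes of secreted plasma proteins and hepatocyte function 1 rose (2.86%, against 6.2%) and 3 fell (8.57%, against 4.84%), and none of the 4 calls was kept under every omission. Cyp3a23-3a1, a pregnane X receptor target, read 26781, 28740.1 and 28679 with 2,7-naphthalenediol and 28566, 32856 and 29388 with DMSO (adjusted p = 0.331). Por, the reductase that feeds electrons to all microsomal P450 enzymes, rose by 1.32-fold (0.40 ± 0.081, adjusted p = 0.0122), and 2 of 25 CAR and PXR targets rose and 2 fell (8% each, against 6.2% and 4.84%). Among hepatocyte transcription factors 6 of 26 rose (23.1%, against 6.2%) and 0 fell, with a median of 0.094. The risers numbered 1 without 2,7-naphthalenediol 2 or DMSO 3 and 4 or 5 otherwise, and 2 with the array median as the scale. Klf9, a glucocorticoid-responsive factor, read 2199, 2083 and 1932, against 1570.1, 1354 and 1401 (log2 change 0.52 ± 0.10, adjusted p = 0.00806). The ER-anchored factor Creb3l3 (0.31), Onecut1 (0.23) and Gata4 (0.23) also rose, with calls that ended in 2, 4 and 5 of the 6 omissions. Fgfr4, the receptor through which gut FGF represses bile acid synthesis, read 108, 117 and 106, against 74.7, 82.8 and 76.5 (log2 change 0.50 ± 0.082, adjusted p = 0.0047). The gluconeogenic gene Pck1 was not well above background on any of the 6 arrays.

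**Figure D4:**
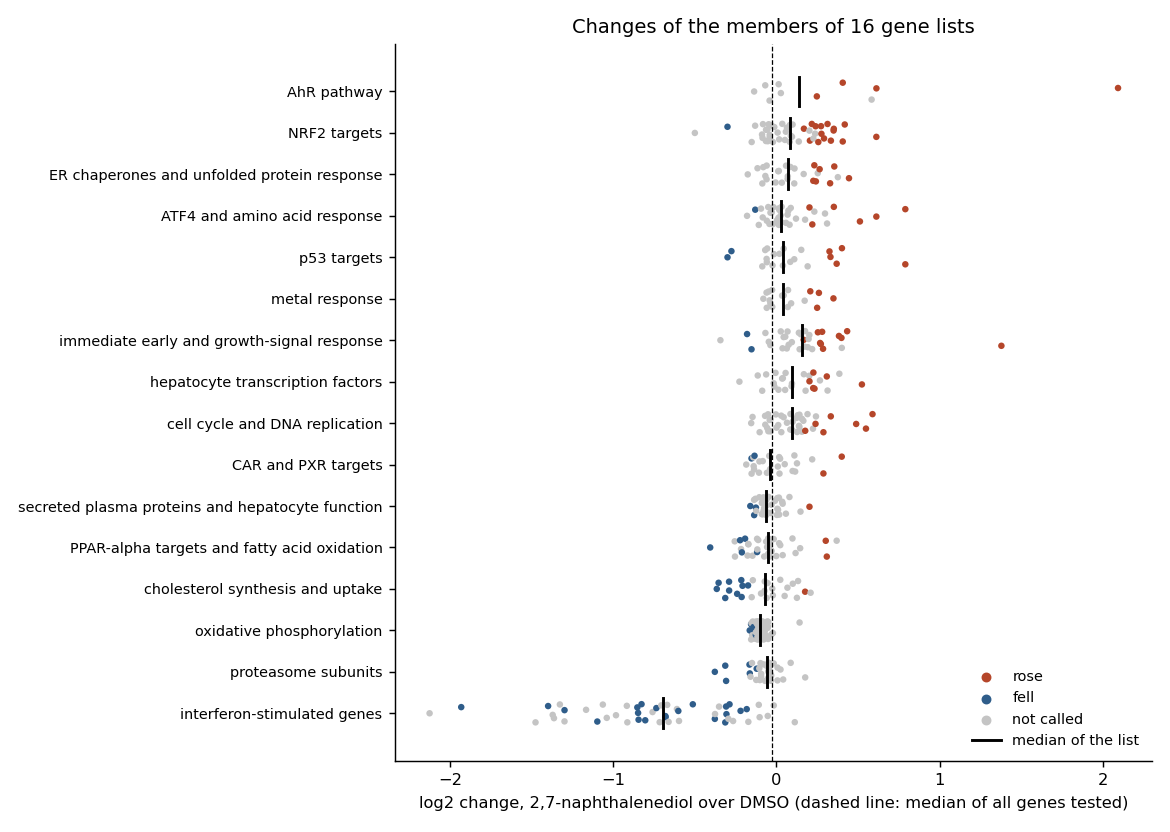
Log2 change of each tested member of 16 gene lists (points; red rose, blue fell, grey not called), with a black bar at the median of the list and a dashed line at the median of all genes (-0.024). Interferon-stimulated genes reach furthest to the left with a median of -0.69, and the AhR list furthest to the right through Aldh3a1 at 2.09.

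Several of the most even falls belonged to no pathway list. Car3, a carbonic anhydrase abundant in male rat liver, read 13900.0, 13428 and 13312 on the 2,7-naphthalenediol arrays and 19701, 18757 and 20189.6 on the DMSO arrays. With ranges this narrow, a fall of 1.44-fold had the smallest p of all falls with a symbol (-0.53 ± 0.047, adjusted p = 0.000226). The organic anion transporter UST4r (-0.45), Fam25a (-0.66) and the prion protein gene Prnp (-0.35) followed, each kept under every omission. The retinol dehydrogenase-like gene Sdr16c5 read 67.5, 66.6 and 60.2, against 103, 125 and 123 (log2 change -0.85 ± 0.15, adjusted p = 0.00617). Epcam, an adhesion protein of bile duct and progenitor cells, read 742, 833 and 796, against 1001, 1121 and 1087 (log2 change -0.44 ± 0.073, adjusted p = 0.00517). The summed level of the 7 bile duct markers moved with it, at 940.9 to 1006 with 2,7-naphthalenediol and 1201 to 1298 with DMSO, although Krt19, Krt7, Spp1 and Cftr were not well above background on any of the 6 arrays. Epcam itself made up most of that sum, and the part of bile duct cells in the result was not tested. The carboxypeptidase Cpm was not well above background on any exposed array, against 2 of 3 DMSO arrays, and so was at least 2.61-fold lower (log2 change -1.98 ± 0.46, adjusted p = 0.0199), but its call ended in 4 of the 6 omissions.

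Among rises outside the lists, Igfbp4, which binds insulin-like growth factors, read 10630.1, 11229 and 10197 on the 2,7-naphthalenediol arrays and 7235, 7839 and 7638 on the DMSO arrays (log2 change 0.50 ± 0.049, adjusted p = 0.000479). Bhlha15 (Mist1), a transcription factor of secretory cells, read 1053, 1219 and 1089, against 760.1, 640.2 and 678, a 1.62-fold rise (0.69 ± 0.083, adjusted p = 0.00136). Lipogenin read 171, 188 and 229, against 125, 97.1 and 90.6 (log2 change 0.92 ± 0.15, adjusted p = 0.00467). Other large rises were of dim genes: the corepressor Ctbp2 read 32.2, 33.4 and 31.6, against 11, 8.84 and 17.7, with 1 of 3 DMSO arrays well above background (log2 change 1.44 ± 0.26, adjusted p = 0.00777). Trim58 was 2.08-fold higher (adjusted p = 0.00948), Rep15 1.94-fold (adjusted p = 0.0149) and Rasal2 1.7-fold (adjusted p = 0.00191). Smo, the Hedgehog signal transducer, was 1.68-fold higher (adjusted p = 0.0122), and none of these 4 genes was well above background on a DMSO array. Probes were kept if well above background on all 3 arrays of any 1 group. Such genes could therefore enter through the group where they were high, and their folds and adjusted p do not allow for that selection. Naa15, an N-terminal acetyltransferase subunit, read 97, 111 and 109.5, against 70.8, 72 and 52.5 (log2 change 0.71 ± 0.12, adjusted p = 0.00592), with separate ranges. Of 410 called genes with more than 1 probe, all probes shared the sign in 361.

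Smaller groups gave scattered calls, few of which were kept under omissions. Of 14 clock genes 3 rose (21.4%, against 6.2%) and 1 fell (7.14%, against 4.84%), with 1 or 2 rises in every omission. The repressor Cry1 read 838, 811 and 883 on the 2,7-naphthalenediol arrays and 696, 664 and 683 on the DMSO arrays (log2 change 0.31 ± 0.052, adjusted p = 0.00522). Nfil3 (0.26) and Npas2 (0.19) rose, and the repressor Nr1d2 read 1101, 1122 and 1080.0, against 1341, 1271 and 1235 (log2 change -0.22 ± 0.044, adjusted p = 0.0115). Cry1 and Nr1d2 had separate groups and kept their calls under every omission. Of 28 lysosome and autophagy genes 3 rose and 2 fell (7.14%, against 4.84%), with 0 to 2 rises in the omissions, the largest rise being that of Tfeb, a transcription factor of lysosomal genes (0.43 ± 0.11, adjusted p = 0.0326). Of 36 complement, coagulation and acute phase genes 2 rose (5.56%, against 6.2%) and 1 fell (2.78%, against 4.84%). The risers were complement C3 (0.30 ± 0.066, adjusted p = 0.0164) and the endotoxin carrier Lbp (0.31 ± 0.071, adjusted p = 0.0207). Of 39 genes of hypoxia and glucose metabolism 4 rose (10.3%, against 6.2%) and 3 fell (7.69%, against 4.84%). The glucose transporter Slc2a1 read 1744, 1930.0 and 1940.2, against 1336, 1624 and 1665 (log2 change 0.28 ± 0.076, adjusted p = 0.0349). Calls of Tfeb, C3, Lbp and Slc2a1 ended in 5, 3, 4 and 3 of the 6 omissions. Cyp2a1, a testosterone hydroxylase of rat liver, read 2722, 3021 and 2932, against 2316, 2366 and 2418 (log2 change 0.29 ± 0.056, adjusted p = 0.0106), kept under every omission.

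Some large falls outside the interferon list had the same uneven controls. Sp100, a nuclear body protein, read 508, 369 and 454 on the 2,7-naphthalenediol arrays and 619, 1435 and 1067 on the DMSO arrays (log2 change -1.16 ± 0.34, adjusted p = 0.0473). Zfp365 read 115, 108 and 112, against 161, 367 and 341 (log2 change -1.29 ± 0.36, adjusted p = 0.0425), and the DNase Dnase1l3 124, 104 and 108, against 153, 307 and 253 (log2 change -1.03 ± 0.22, adjusted p = 0.0157). In all 3, DMSO 1 was the control nearest to the exposed arrays, and the calls ended in 5, 5 and 3 of the 6 omissions.

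1,5-Naphthalenediol differs from 2,7-naphthalenediol in the positions of its hydroxyl groups and was tested at the same dose and time, which allows 1 direct comparison of the isomers. In that contrast 1604 genes were higher (8.1%) and 1310 lower (6.62%) with 2,7-naphthalenediol, 2914 (14.7%) in all. Of 10 AhR genes 5 were lower with 2,7-naphthalenediol and 0 higher. Aldh3a1 read 49.7, 37.7 and 44.7 with 2,7-naphthalenediol and 133, 129.6 and 108 with 1,5-naphthalenediol (difference -1.49, 95% interval -1.72 to -1.26, adjusted p = 6.7e-06). Cyp1a1 read 2297, 2265 and 2904, against 8140.1, 6459 and 8195 (difference -1.61, 95% interval -1.87 to -1.35, adjusted p = 9.6e-06), and Nqo1 1559, 1609 and 1659, against 3847, 3574 and 3839 (difference -1.22, 95% interval -1.35 to -1.09, adjusted p = 2.28e-07). Of the NRF2 targets, Gstp1 read 2463, 2434 and 2588, against 9356, 9920.2 and 9396 (difference -1.94, 95% interval -2.03 to -1.85, adjusted p = 1.23e-10). None of these ranges overlapped, and 22 of 47 NRF2 targets were lower with 2,7-naphthalenediol and 6 higher, against 6.62% and 8.1% of all genes. Those 6 included Slc7a11 (0.48), Hmox1 (0.25) and Srxn1 (0.30), against the direction of the 22.

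Many growth-signal and ATF4 genes differed the other way. Egr1 read 235, 283 and 292 with 2,7-naphthalenediol and 98.3, 131 and 106 with 1,5-naphthalenediol (difference 1.28, 95% interval 0.94 to 1.61, adjusted p = 0.000293), and the ranges lay far apart. Atf3 read 4908, 5402 and 5116, against 3161, 3351 and 3670.1 (difference 0.60, 95% interval 0.42 to 0.78, adjusted p = 0.00067), Cxcl1 919, 972 and 972, against 577, 627 and 653 (difference 0.63, 95% interval 0.46 to 0.79, adjusted p = 0.000323), and Srf 3186, 3462 and 3384, against 2081, 2062 and 2011 (difference 0.70, 95% interval 0.58 to 0.83, adjusted p = 1.79e-05). Of 34 immediate early genes 18 were higher with 2,7-naphthalenediol and 1 lower, and of 36 ATF4 genes 17 were higher and 0 lower, against 8.1% of all genes higher and 6.62% lower. The median differences of these lists were 0.21 and 0.16, beside median changes of 0.16 and 0.028 over DMSO. With 1,5-naphthalenediol Atf3 was lower than with DMSO (-0.43, adjusted p = 0.00349), and Srf lay below every DMSO array. Egr1 with 1,5-naphthalenediol was not called against DMSO (0.10, adjusted p = 0.679). Socs3 was an exception among feedback genes, at 142, 139.7 and 133 with 2,7-naphthalenediol and 193, 188 and 184 with 1,5-naphthalenediol (difference -0.45, 95% interval -0.55 to -0.35, adjusted p = 9.35e-05). Car3 was lower than with DMSO (19701, 18757 and 20189.6) under both diols, less so with 2,7-naphthalenediol (13900.0, 13428 and 13312, against 8705, 9351 and 9234 with 1,5-naphthalenediol, difference 0.57, 95% interval 0.47 to 0.68, adjusted p = 1.65e-05).

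For other genes no difference between the isomers was called. Acat2 read 7694, 7638 and 7461 with 2,7-naphthalenediol and 7395, 7278 and 7239 with 1,5-naphthalenediol (difference 0.057, 95% interval -0.033 to 0.15, adjusted p = 0.401). Herpud1 (difference -0.038, 95% interval -0.16 to 0.082, adjusted p = 0.698), Klf9 (difference 0.056, 95% interval -0.16 to 0.27, adjusted p = 0.756) and Bhlha15 (difference 0.038, 95% interval -0.14 to 0.22, adjusted p = 0.809) had intervals that include 0. The intervals for interferon genes were wide: for Mx1, 1525, 982 and 1067 with 2,7-naphthalenediol and 733, 668 and 1245 with 1,5-naphthalenediol, it ran from -0.53 to 1.46, and 2 of the 50 genes were called higher and 0 lower. Of the genes that rose over DMSO, 860 of 1228 were not called between the isomers, 291 were higher and 77 lower with 2,7-naphthalenediol. Of those that fell, 689 of 958 were not called, 175 were lower and 94 higher. These counts share the 2,7-naphthalenediol arrays between both comparisons. With the 8 arrays of slide 1 alone, which leaves out 1,5-naphthalenediol 3, 1593 genes differed between the isomers.

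**Figure D5:**
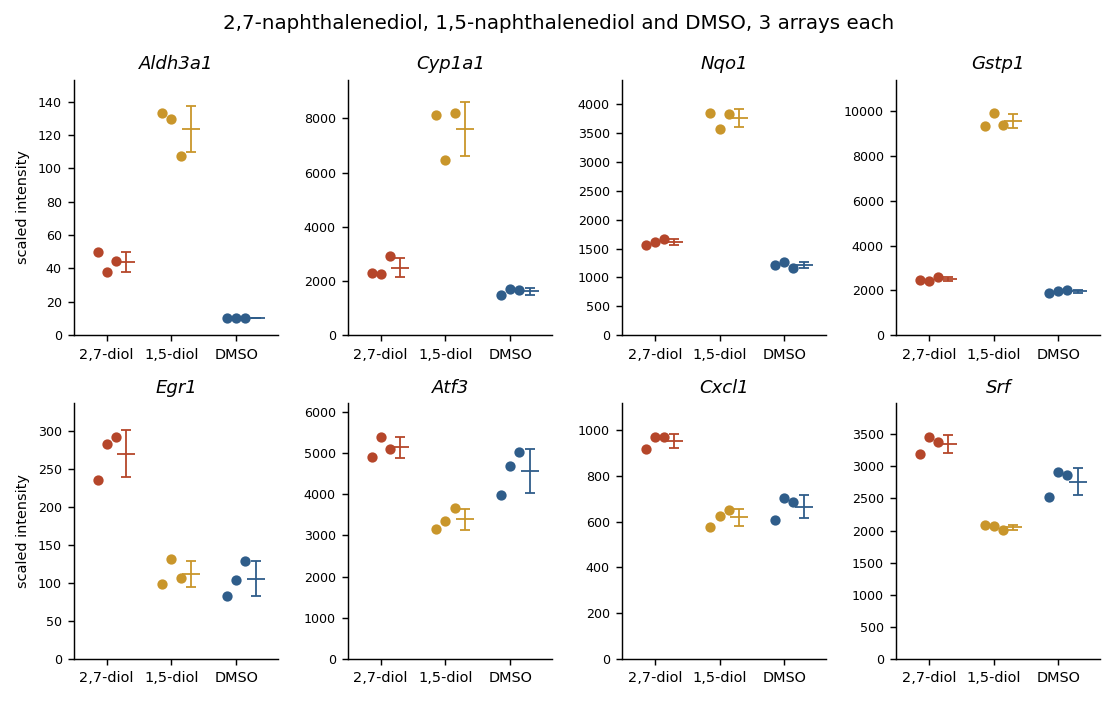
Scaled intensity of 8 genes on each array (points) for 2,7-naphthalenediol (2,7-diol, red), 1,5-naphthalenediol (1,5-diol, yellow) and DMSO (blue), with the mean ± SD of 3 arrays beside each set. Aldh3a1, Cyp1a1, Nqo1 and Gstp1 are highest with 1,5-naphthalenediol, and Egr1, Atf3, Cxcl1 and Srf are higher with 2,7-naphthalenediol than with 1,5-naphthalenediol.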

How the data were processed

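Gene expression was measured on 15 single-colour Agilent arrays, 3 for each of 5 groups, and groups were taken from the sample titles. Intensity values (processed signals) were deposited as scanner output, made with Feature Extraction 10.7.1.1 per the file headers. The log2 of the deposited intensity minus each array's 75th percentile over gene spots was computed here, with control spots left out. Outlier spots counted in that percentile and were left out afterwards. Probes well above background on all 3 arrays of a group were kept (23562). The brightest probe stood for a gene, and 10503 of 19803 genes were named through RefSeq transcript accessions. limma 3.58.1 (R 4.3.3) fitted 1 mean per group over the 15 arrays, with Benjamini-Hochberg adjustment over all genes tested. An exact permutation test of 3 arrays against 3 could not have gone below 0.10 and was not run. The fold of Cpm is given as "at least", since no exposed array was well above background for it. This bound sets the mean of the brighter group against a floor per array, which is the larger of the dim probe's signal and the weakest signal that counted as above background. It leaves out the spread between arrays. For Aldh3a1, Trim58, Rep15, Rasal2 and Smo the floor changed nothing, and the fold is the plain estimate.

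On simulated data, with 50 of 19803 genes changed per size in 2,7-naphthalenediol against DMSO, 30%, 62%, 84% and 98% were recovered at log2 sizes of 0.25, 0.5, 1 and 1.5, with 4 false calls in all. The simulated noise was normal and independent between genes and arrays, with no effect of slide row. The 4 false calls therefore do not measure the false calls among the real arrays. Genes named in the text are 26 preset genes, the 20 largest rises and falls with separate groups, up to 5 called genes (and 1 of opposite direction) per list, and the 5 smallest p-values per direction. Others are named as members of short counts, and some genes that the rule picked are not reported here. The 37 gene lists and the comparison itself were chosen with earlier results of these data known. The alternatives tried are in the closing section. The files carry no mean signal column, so the median signal was used for the normexp alternative. Little pairing by replicate number was seen: 2 of 30 same-numbered pairs correlated above 0.1. Whether same-numbered arrays came from 1 experiment was not tested.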

Additional observations from a re-analysis of the deposited data

How the results depend on the processing

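The number of genes differing between 2,7-naphthalenediol and DMSO (2186, of which 1228 rose and 958 fell) was 519 with no filter on dim probes (360 rose, 159 fell), 1031 with the 6 arrays fitted alone (678 rose, 353 fell) and 82 with the slide row as a block (47 rose, 35 fell), an alternative chosen after seeing the data that sets 2,7-naphthalenediol 1 against DMSO. The falls numbered 2132 with the array median as the scale and 1538 with the slide as a block. Leaving out 1 array gave 732 to 1614 genes (469 to 942 rose, 263 to 672 fell). The genes differing from 1,5-naphthalenediol (2914) numbered 1375 with no filter on dim probes, 1593 with slide 1 alone, 1527 with the slide row as a block and 1823 to 2625 without 1 array. The cause of these shifts was not tested. Among 176 genes chosen by rule, Ahrr turned to -0.026 with normexp and -0.19 with the slide row as a block, and Ddit3 ranged from -0.011 (without 2,7-naphthalenediol 3) to 0.21 when 1 array was left out, none of which was called in any of these fits. No other direction changed among those named in the text, and of 166 calls 153 were lost with the slide row as a block and 58 to 97 without 1 array. Dim probes limit what can be seen, since genes of the dimmest of 4 equal classes had a median standard error of 0.173 log2 units, against 0.046 in the brightest.

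With the replicate number as a block, 1092 genes rose and 780 fell over 15 arrays. Within the 6 arrays the same block left 0 genes called by limma (0 rose, 0 fell), with 4856 at an unadjusted p below 0.05. The numbers did not pair the arrays: an array's best match carried its own number in 5 of 15 cases, and same-numbered pairs of 2,7-naphthalenediol and DMSO had correlations of -0.12 to -0.051.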

Other observations

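Long noncoding RNAs leaned to lower levels with 2,7-naphthalenediol: of 143 tested, 2 rose (1.4%, against 6.2% of all genes) and 18 fell (12.6%, against 4.84%).

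Calls depended on brightness. In 4 equal classes of mean scaled intensity, dimmest first, 3.68%, 6.52%, 8.42% and 6.18% of genes rose and 1.76%, 3.41%, 6.08% and 8.1% fell. Changes of 2-fold or more numbered 31, 18, 5 and 1 in the same order. The spiked-in control RNAs, 8 of 10 of them well above background on all 6 arrays, differed by a median of 0.059 log2 units (2,7-naphthalenediol minus DMSO, range -0.021 to 0.0997), above the median of all genes.

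Of 410 called genes with more than 1 probe, another probe was called in the same direction for 102 and in the opposite direction for 3 (Cd46, Rbks and 1 gene known only by accession). Among 9300 genes known only by accession, 556 rose (5.98%, against 6.2% of all genes) and 344 fell (3.7%, against 4.84%).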
